A study of Mus with 4 samples.

Results

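The genes of the plasminogen activators, of their receptor and inhibitors, and of the start of coagulation were followed in a murine podocyte cell line. They are Plat, Plau, Plaur, Serpine2, Serpinf1, F3, Tfpi, Tfpi2 and Thbd. All rows of the deposited signal table that carry one of these gene symbols were taken, which gave 17 probes, each printed as 1 spot, out of the 56605 probes of the array, and 9 genes out of 26893 gene symbols. The immortalized podocytes of both groups had been differentiated under nonpermissive conditions and were then exposed to a lentivirus for 24 h, with 200 to 500 infectious units per cell. The vector carried the fluorescent protein Venus in the 2 control samples and the active form of the transcription factor OASIS (Creb3l1), which is its N-terminal part, in the other 2 samples. Total RNA was taken 48 h after the vectors were added, labelled with Cyanine3 and hybridised to 1-colour Agilent arrays, 1 array per sample. The labels number the samples of a group but do not say that they came from separate cultures, so that the p-values measure only the spread between these samples, which may be technical.

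Plasminogen activators are secreted serine proteases that cut plasminogen into plasmin, the protease that dissolves fibrin and also degrades matrix proteins. Tissue plasminogen activator acts mainly on fibrin, whereas urokinase acts largely at the cell surface through its receptor, which in podocytes is also known as a partner of integrins at the foot processes. Serpins trap these proteases. Tissue factor is the membrane protein that starts coagulation, and it is known to be made by cells of the glomerulus. Tissue factor pathway inhibitor and thrombomodulin restrain the cascade, the latter on endothelium.

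Values are the log2 of the background-corrected spot intensity minus the 75th percentile of its array, called normalized log2 intensity here. A fold change was called when it was over 2.0 or under 0.5 with an adjusted p under 0.1, the threshold of the study's methods, and the adjusted p alone is given as a weaker call. Between 33938 and 34418 of the 59305 spots that are not controls were well above background on each array, and none was saturated. The 4 arrays share a slide and a scan. Creb3l1 itself has 1 probe. It read 0.71 and 0.72 with Venus and 0.61 and 0.49 on the arrays labelled OASIS, so that it did not show the overexpression. Whether it lies within the vector's insert was not analysed here. The paper examined OASIS protein by immunoblot 48 h after the lentivirus, and describes the podocytes as overexpressing OASIS. "OASIS arrays" below stands for the arrays labelled so. Of 9 podocyte markers, 6 were well above background on both arrays of each group, with a summed corrected intensity of 58078 to 63085 with Venus and of 58876 to 61665 with OASIS, while Ptpro was so on no array and Nphs1 on 1 Venus array only. The markers did not move alike, since the Wt1 probe A_55_P1953143 was higher with OASIS by 4.62 on the log2 scale (adjusted p = 0.00215 by limma) and the Cd2ap probe A_52_P175066 by 1.09 (0.00832), while other probes of both genes did not pass the threshold. Of 5 endothelial markers only Pecam1 was detected, and Cdh5, Kdr, Tek and Emcn were at background throughout, with sums of 41.4 to 46.8 and of 50.4 to 51.4. Of 5 tubular markers 2 were detected in each group, Aqp2 and Lrp2, with a summed corrected intensity of 2229 to 3153 with Venus and 6028 to 7529 with OASIS. Among these only 2 of the 5 Lrp2 probes passed the threshold, at 1.62 and 1.68, while the other 3 lay between -0.16 and 0.012 and Aqp2 at -0.39 (adjusted p = 0.0538 by limma). The summed intensity of the 4 leukocyte markers was 16289 to 16605 with Venus and 12085 to 12640 with OASIS, with Adgre1 at background throughout. Most of it came from Itgam probe A_55_P1977934, at 13848 and 13563 with Venus and 10190 and 9254 with OASIS. That probe changed by -0.51 (adjusted p = 0.0430 by limma), while the other tested leukocyte probes lay between -0.35 and 0.065, none called. The sum of the 3 mesangial markers was 3553 to 4502 and 2890 to 3651, with Gata3 at -0.82 (adjusted p = 0.0264 by limma) and Pdgfrb at -0.097 (0.716). The part of these shifts in the results below was not tested.

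The clearest change among the members was in urokinase. Plau was lower on the OASIS arrays by both of its probes, to about the 2-fold limit. The receptor Plaur was higher by a smaller amount, while the probes of Plat, of Serpinf1 and the brighter probe of Serpine2 did not pass the test. F3 did not pass the test, 1 of the 4 Tfpi probes was lower at the adjusted p alone, and Thbd and Tfpi2 were at background in all 4 samples. In RNA of whole cultures, fewer cells that make a transcript and less of it in each cell cannot be told apart.

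Of the 17 probes, 14 were tested, and 13 of these were well above background on all 4 arrays. One probe, for Plau, passed the fold limit and the adjusted p, which is 7.14% of those tested, against 8.36% of the 31598 probes tested on the whole array. That probe was lower, and in the lower direction the share of all probes was 2.47%. At the adjusted p alone, 5 of the 14 member probes were called (35.7%, against 36.7% of all probes), 4 of them lower (28.6%, against 19.7%). The groups did not overlap for 7 of the 14 (50%, against 68% of all probes). Both shares in the lower direction lie above those of the array, the first through 1 Plau probe and the second through 4 probes, of which 2 are for Plau. The other shares lie near or below those of the array. The median log2 fold change of the 14 probes was -0.13, beside -0.069 over all probes tested. By gene, 1 of the 7 members with a tested probe passed, against 12.2% of the 16318 genes tested. The members lie on separate chromosomes, except for Tfpi and Thbd, which are both on chromosome 2, and the deposited annotation places 6 of the 9 in the KEGG pathway of complement and coagulation cascades.

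**Figure D1:**
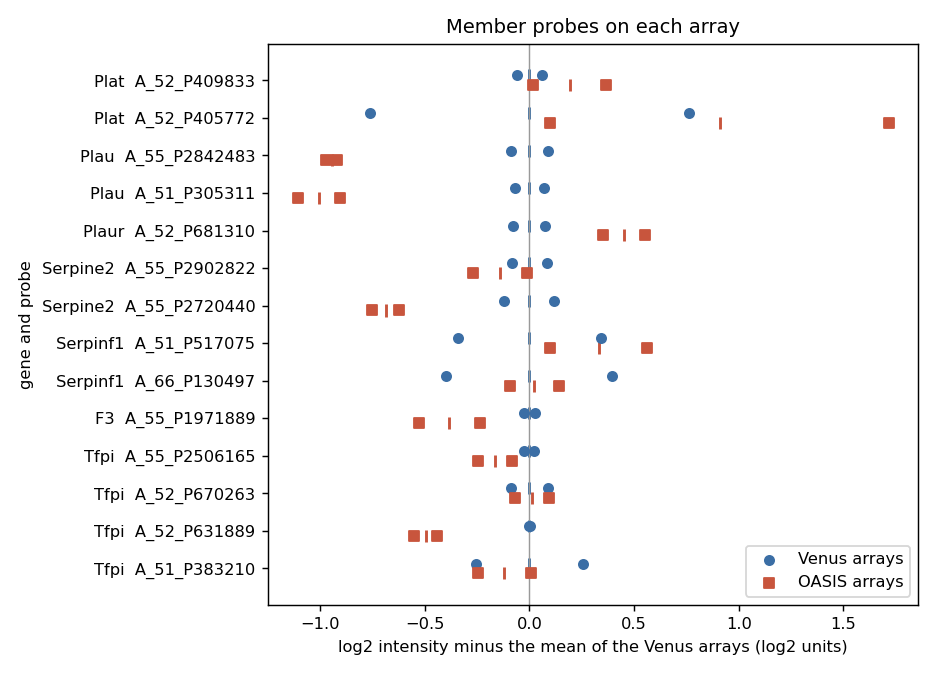
Each of the 14 tested member probes on each array, as log2 intensity minus the mean of the Venus arrays. Circles are Venus arrays, squares are OASIS arrays, and vertical ticks are group means. Both Plau probes lie about 1 log2 unit lower on the OASIS arrays than on the Venus arrays, with no overlap.

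Plau, the gene of urokinase, lies on chromosome 14 in band qA3 and has 2 probes annotated to the same RefSeq transcript. The brighter probe, A_55_P2842483, had a corrected intensity of 7558 and 7144 in the Venus samples and of 3886 and 3796 in the OASIS samples. On the normalized scale this was 3.03 and 2.85 against 2.02 and 1.97. Both OASIS arrays lay below both Venus arrays, by 0.83 at the nearest. Its mean went from 2.94 ± 0.12 (SD, n = 2) to 2.0 ± 0.037 (SD, n = 2), a log2 fold change of -0.94 (adjusted p = 0.0109 by limma, standard error [SE] 0.11). This is 1.92-fold lower, with a 95% interval of 1.56-fold to 2.37-fold. It was therefore called at the adjusted p but not by the fold limit.

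The dimmer Plau probe, A_51_P305311, read -2.18 and -2.32 with Venus and -3.15 and -3.36 with OASIS, again without overlap. Its log2 fold change was -1.01 (adjusted p = 0.0117 by limma, SE 0.13), or 2.01-fold lower with an interval of 1.6-fold to 2.53-fold. Both probes thus gave nearly the same change, 0.063 apart on the log2 scale, on either side of the fold limit. The dimmer one no longer passed that limit without Venus replicate 1, at -0.94, without OASIS replicate 2, at -0.91, or after normexp background correction, at -0.65. Without Venus replicate 2 the brighter one passed too, at -1.03. Both were lower under each alternative that was run, with adjusted p-values between 0.000507 and 0.112.

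Plat, the gene of tissue plasminogen activator, is on chromosome 8 in band qA2. Its brighter probe, A_52_P409833, read 4.57 and 4.45 in the Venus samples and 4.87 and 4.52 in the OASIS samples. The groups overlapped, since OASIS replicate 2 fell between the Venus arrays. The log2 fold change was 0.19 (adjusted p = 0.411 by limma, SE 0.16), and its interval, 0.860-fold to 1.52-fold, holds no change of 2-fold in either direction. The dimmer Plat probe, A_52_P405772, annotated to an Ensembl transcript, was not well above background on Venus replicate 1. It read -5.86 and -4.34 with Venus and -5.00 and -3.38 with OASIS. The log2 fold change was 0.91 (adjusted p = 0.412 by limma, SE 0.74), with an interval of 0.489-fold to 7.21-fold. Whether the change of Plat differed from that of Plau was not tested.

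Plaur, the gene of the urokinase receptor, is read by 1 probe, on chromosome 7 in band qA3. Its normalized log2 intensity was 3.33 and 3.18 in the Venus samples and 3.81 and 3.61 in the OASIS samples. Both OASIS arrays were above both Venus arrays, by 0.28 at the nearest. The mean went from 3.26 ± 0.11 (SD, n = 2) to 3.71 ± 0.14 (SD, n = 2), a log2 fold change of 0.45 (adjusted p = 0.0658 by limma, SE 0.13), or 1.37-fold higher with an interval of 1.08-fold to 1.73-fold. It was thus called at the adjusted p, in the direction opposite to that of Plau, and its interval stays under the fold limit. The call was lost without OASIS replicate 1 (adjusted p = 0.158 by limma), without Venus replicate 1 (0.201) and without Venus replicate 2 (0.309), and also with no filter on dim probes (0.146), while the log2 fold change stayed between 0.35 and 0.55.

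**Figure D2:**
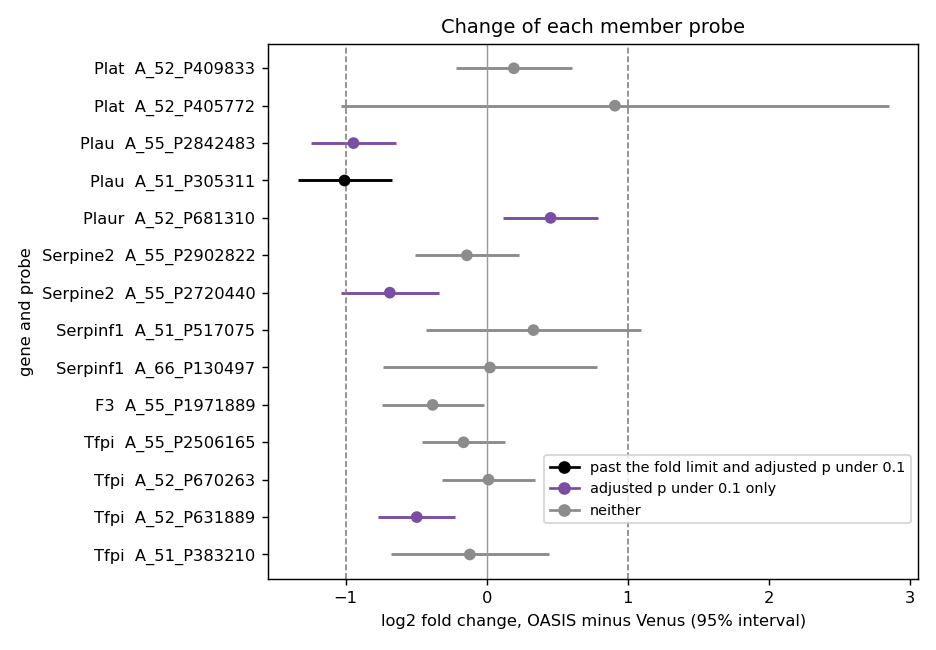
The log2 fold change of each tested member probe, OASIS minus Venus, with its 95% interval from limma. Dashed lines mark the 2-fold limit and colours mark the calls. The Plau probes lie at -0.94 and -1.01 and Plaur at 0.45, whereas 9 of the 14 intervals hold no 2-fold change in either direction.

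Of the inhibitors, 1 of the 2 tested probes of Serpine2 was called at the adjusted p and neither tested probe of Serpinf1. Serpine2 encodes protease nexin-1, a serpin that inhibits thrombin, urokinase and tissue plasminogen activator, and lies on chromosome 1 in band qC4. Its brighter probe, A_55_P2902822, read 4.94 and 5.11 with Venus and 4.75 and 5.01 with OASIS. The groups overlapped, and the log2 fold change was -0.14 (adjusted p = 0.504 by limma, SE 0.14) with an interval of 0.702-fold to 1.17-fold. The dimmer probe, A_55_P2720440, is annotated to an Ensembl transcript and read -3.82 and -4.06 with Venus against -4.56 and -4.69 with OASIS. These groups did not overlap, and the log2 fold change was -0.69 (adjusted p = 0.0284 by limma, SE 0.13), 1.61-fold lower. That call was lost without Venus replicate 1 (adjusted p = 0.167 by limma), and after normexp correction the log2 fold change was -0.25. Which transcripts each probe reads was not analysed here.

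Serpinf1 encodes pigment epithelium-derived factor, a secreted serpin that inhibits no protease and is known for restraining blood vessel growth. It lies on chromosome 11 in band qB5 and has 3 probes for 1 RefSeq transcript. A_51_P517075 read -4.07 and -3.38 in the Venus samples and -3.16 and -3.63 in the OASIS samples. A_66_P130497 read -3.70 and -4.50 against -4.19 and -3.96. In both the groups overlapped, and the log2 fold changes were 0.33 (adjusted p = 0.445 by limma, SE 0.29) and 0.023 (adjusted p = 0.962 by limma, SE 0.29). The third probe, A_52_P35048, was well above background on Venus replicate 1 only, with values from -6.40 to -5.74, and was not tested. With intervals of 0.742-fold to 2.13-fold and 0.6-fold to 1.72-fold, moderate changes of Serpinf1 could not be detected with these arrays.

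On the side of coagulation, F3, the gene of tissue factor on chromosome 3 in band qG1, has 1 probe, with corrected intensities of 93347 and 103218 with Venus and of 68015 and 84264 with OASIS. The normalized log2 intensity was 6.65 and 6.71 against 6.15 and 6.44. Both OASIS arrays were below both Venus arrays, by 0.21 at the nearest, yet they also differed from each other more than the Venus arrays did. The log2 fold change was -0.38 (SE 0.14), 1.30-fold lower with an interval of 1.01-fold to 1.68-fold, and missed the adjusted p (adjusted p = 0.109 by limma). Under the alternatives it lay between -0.53 and -0.24, with an adjusted p from 0.0322 to 0.364.

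Tfpi, on chromosome 2 in band qD, encodes tissue factor pathway inhibitor, which blocks factor Xa and the complex of tissue factor with factor VIIa. Its 4 probes did not give 1 answer. The brightest, A_55_P2506165, annotated to transcript variant 1, read 2.66 and 2.71 in the Venus samples and 2.44 and 2.60 in the OASIS samples, a log2 fold change of -0.16 (adjusted p = 0.335 by limma, SE 0.11). Another probe annotated to variant 1, A_52_P631889, read -1.19 and -1.18 against -1.63 and -1.74. Here the groups lay 0.44 apart at the nearest, and the log2 fold change was -0.50 (adjusted p = 0.0343 by limma, SE 0.10), 1.41-fold lower. That call was lost without Venus replicate 1 (adjusted p = 0.200 by limma) and without Venus replicate 2 (0.197), at log2 fold changes that stayed between -0.55 and -0.44.

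The Tfpi probe annotated to variant 2, A_52_P670263, read -0.083 and -0.26 with Venus and -0.079 and -0.24 with OASIS. The 2 groups covered nearly the same range, and the log2 fold change was 0.013 (adjusted p = 0.95 by limma, SE 0.13), with an interval of 0.802-fold to 1.27-fold. The dimmest probe, A_51_P383210, gave -0.12 (adjusted p = 0.713 by limma, SE 0.21). Whether the change differs between the 2 variants was not tested, and the probes of variant 1 themselves stand at -0.16 and -0.50.

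Tfpi2, on chromosome 6 in band qA1, encodes a matrix-bound inhibitor of plasmin and other serine proteases. Its probe lay between -8.26 and -8.19 and was not well above background on any array. Thbd, on chromosome 2 in band qG3, encodes thrombomodulin, the receptor on which thrombin activates protein C. Its probe lay between -8.47 and -8.42, also not well above background on any array. The lowest signals well above background stood between -6.15 and -6.10 on these arrays. No fold is given for either gene, since both groups are below background, and a change below that level was not detectable.

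The other genes of the system were taken from a list of 47 genes in 4 groups, all carried by the array with 78 probes. For 26 genes at least 1 probe was tested, 39 probes in all. Of these 26 genes, 7 had a probe past the threshold, all of them higher with OASIS, and 19 had none. Of all genes tested, 12.2% had such a probe in either direction. The list was chosen with earlier results of these data known, so that this count is no independent evidence. Lrp1 and F2rl2 are among the 7 through probes that were tested only because both OASIS arrays were well above background. With the filter on all 4 arrays the count was 5, where 1933 of the 29500 probes tested on the whole array passed. At the adjusted p alone, 8 of the 26 genes had a higher probe, against 23.5% of all genes, and 5 a lower one, against 26.2%. No gene was lower past the threshold, while 7 probes had a lower value at an unadjusted p under 0.05 in limma. In either direction 19 of the 39 probes had such a p, beside 12861 of the 31598 probes tested on the whole array. The count of the whole array in the lower direction alone is not given here. Klkb1 was lower past the threshold with quantile or median scaling, the intensity trend, the replicate block or Venus replicate 2 left out, Vwf without a filter and Serpinc1 without OASIS replicate 1. Over the 39 probes the log2 fold change had a median of 0.047, beside -0.069 for all probes tested. The remaining 21 genes were not well above background on both arrays of either group, among them Plg, Vtn, the 3 fibrinogen genes Fga, Fgb and Fgg, and Vwf.

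Of the genes that process and export clotting factors, all 4 were tested, with 7 probes. Each of the 7 was higher at the adjusted p, 5 of them past the fold limit, with a median log2 fold change of 1.07. Of the 31598 probes tested on the whole array, 5374 were higher at the adjusted p and 1861 were higher past the threshold. Mcfd2 and Lman1 encode the cargo receptor that carries factors V and VIII out of the endoplasmic reticulum. The brighter Mcfd2 probe, A_51_P465232, read 4.43 and 4.40 in the Venus samples and 5.99 and 5.59 in the OASIS samples, a log2 fold change of 1.38 (adjusted p = 0.0107 by limma, SE 0.16), and the other Mcfd2 probe gave 1.63. For Lman1, A_52_P652513 read 3.05 and 3.0 against 4.65 and 4.54, a log2 fold change of 1.57 (adjusted p = 0.00413 by limma, SE 0.10). The other tested Lman1 probe was higher by less, at 0.62. Vkorc1, the vitamin K epoxide reductase, had 1.07 by each of its 2 probes, and Ggcx, the carboxylase that uses vitamin K, had 0.98 (adjusted p = 0.00782 by limma, SE 0.098), just short of the fold limit. Lman1 and Mcfd2 belong to the export genes that were already known to be higher in these arrays when the list was made, so that their direction is no independent evidence. They serve the export of other secreted proteins too, and factors V, VII, IX and X, among the proteins that these enzymes and receptors handle, were not tested for want of signal. F8, with a log2 fold change of -0.24 (adjusted p = 0.164 by limma), and F2, with -0.38 (0.168), were tested and not called.

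**Figure D3:**
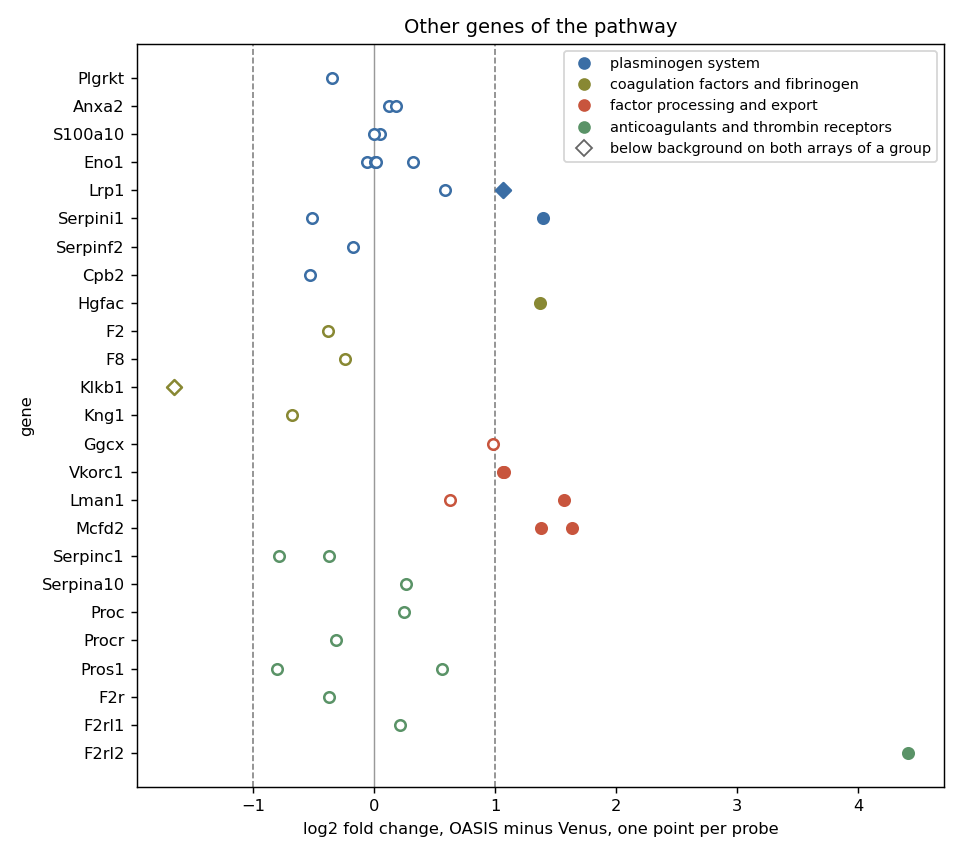
Log2 fold change, OASIS minus Venus, of tested probes of the other genes that are reported here, 1 point per probe, by group. Filled points passed the threshold, diamonds mark probes below background on both arrays of a group, and dashed lines mark the 2-fold limit. The 7 probes of factor processing and export lie between 0.62 and 1.63, and the fitted value of F2rl2, with 1 Venus array below background, lies at 4.41.

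In the plasminogen system outside the members, 2 of the 9 genes tested had a probe past the threshold, against 12.2% of all genes tested. Lrp1, the receptor that takes up complexes of activators with their inhibitors, was higher at the adjusted p by its brighter probe, at 0.59 (adjusted p = 0.0374 by limma, SE 0.13). Its dimmer probe passed the threshold by its fitted change, but neither Venus array was well above background there. With both raised to their lowest signal well above background, it was 1.59-fold higher. Of the 2 tested probes of Serpini1, the gene of neuroserpin, an inhibitor of tissue plasminogen activator, A_52_P220573 passed at 1.39 (adjusted p = 0.0257 by limma) and the other one stood at -0.52 (0.114). The docking proteins of plasminogen, Anxa2, S100a10 and Eno1, had 8 tested probes in all, with log2 fold changes from -0.056 to 0.32, none called. Cpb2 was lower at the adjusted p alone, at -0.53 (adjusted p = 0.0372 by limma).

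In the group of clotting factors, fibrinogen and related proteases, 1 of the 5 genes tested passed, against 12.2% of all genes tested. This was Hgfac, at 1.37 (adjusted p = 0.0135 by limma, SE 0.19). It encodes the activator of hepatocyte growth factor, a protease related to factor XII and not itself a clotting factor. The other 4 tested genes of the group did not pass. Of these, Kng1 was lower at the adjusted p alone, at -0.68 (adjusted p = 0.0437 by limma). The tested probe of Klkb1, plasma prekallikrein, read -4.33 and -5.99 with Venus and -7.03 and -6.60 with OASIS, where neither array was well above background. Its fitted change had an adjusted p of 0.101 by limma. With the OASIS arrays raised to their lowest signal well above background, it was 1.98-fold lower. That value rests on Venus replicate 1 and is 1.11-fold without it. Among anticoagulants and thrombin receptors, 1 of the 8 genes tested passed, against 12.2% of all genes tested. F2rl2, the thrombin receptor PAR3, read -7.47 and -6.04 on the Venus arrays, of which replicate 1 was not well above background, and -2.06 and -2.63 with OASIS. The fitted log2 fold change was 4.41 (adjusted p = 0.0104 by limma, SE 0.52), and it was 3.73 with that array raised to its lowest signal well above background. F2r, the main thrombin receptor PAR1, was lower at the adjusted p, at -0.38 (adjusted p = 0.061 by limma, SE 0.10). Serpinc1 probe A_52_P409746 was also lower at the adjusted p, at -0.78 (adjusted p = 0.0651 by limma), while A_55_P2925183 stood at -0.37 (0.215). The 2 tested probes of Pros1, the gene of protein S, pointed in opposite directions, at -0.80 (adjusted p = 0.0295 by limma) and 0.56 (0.144).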

How the data were processed

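Agilent Feature Extraction 12.1.0.3 had, per the file headers, corrected the spot intensity of each 1-colour array for background before the authors deposited it. Their deposited signal table multiplies this intensity by 1 factor per array, and gave the gene symbols, bands and transcripts. The array design names the build mm9, and no coordinates or probe sequences were used here.

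After control and outlier spots had been dropped, each array was centred on its 75th percentile on the log2 scale and replicate spots were averaged per probe. A probe was taken as well above background where at least 0.5 of its spots were, and was tested where this held on both arrays of at least 1 group. limma 3.58.1 in R 4.3.3 (lmFit, eBayes, with the data.table package, version 1.17.8) compared the groups probe by probe, and p-values were adjusted after Benjamini and Hochberg over the 31598 probes tested. The threshold was a fold above 2.0 or below 0.5 together with an adjusted p below 0.1. The methods name no test for the array's q-values. What is called the methods' t-test below is the Student's t-test that they give for comparisons of 2 groups in general. Intervals are at 95%. With 2 arrays per group the smallest two-sided p of an exact permutation test is 0.333, and the number of arrays limits the precision.

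For raised values, the brighter group was set against the dimmer group. Each array of the dimmer group was raised to its lowest signal well above background where the probe was under it. The resulting fold is no strict lower limit, since a probe can lie above that signal without being well above background. All probes of the members are reported. Of the other genes, those with a probe past the threshold were to be named. Further genes and the single marker probes were chosen after their values were seen. The further genes were Ggcx, F8, F2, Klkb1, Kng1, Cpb2, F2r, Pros1, Serpinc1, Vwf, Anxa2, S100a10 and Eno1. The members and lists were chosen with earlier results of these data known. Promoter motifs were not searched, since no promoter sequences were used here. The fit was tested on simulated data. Some items of the lists are counted but not reported here by name.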

Additional observations from a re-analysis of the deposited data

How the results depend on the processing

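The alternatives were quantile and median scaling, normexp with an offset of 50 on the median spot intensity, the deposited scaled intensities, no filter, a filter on all 4 arrays, outlier spots kept, the methods' t-test, an intensity trend, a replicate block, each array left out in turn, and a limit of 0.05 on the adjusted p. The count of member probes past the threshold, 1, was 0 after normexp and 0 with the methods' t-test, in which 4 of 14 had an unadjusted p under 0.05 and the lowest adjusted p was 0.105. Without 1 array it was between 0 and 2. The count of other genes past the threshold, 7, was 1 with the methods' t-test (Lman1), 5 after normexp and 5 with the filter on all arrays, 8 with quantile or median scaling or the trend, and between 6 and 8 without 1 array. The calls of Plaur (adjusted p 0.198), Serpine2 A_55_P2720440 (0.149) and Tfpi A_52_P631889 (0.109) at the adjusted p were lost with that t-test. Over all probes, 2641 passed, against 1223 after normexp and 726 with the methods' t-test. The causes were not tested. Of 209 values of member probes under the alternatives, 193 kept direction and side of the threshold, and 11 changed sign, all of probes not called. Many of these values could not change sign. The 2 filter settings, the t-test, the trend, the replicate block and the limit of 0.05 leave the fold change of a member probe as it was. Tfpi A_52_P670263 was at -0.0089 with median scaling, -0.018 after normexp and -0.0012 with the deposited intensities, and between -0.077 and 0.10 without 1 array. Serpinf1 A_66_P130497 was at -0.032 after normexp and between -0.37 and 0.42 without 1 array. Without 1 array Serpinf1 A_51_P517075 lay between -0.011 and 0.67 and Tfpi A_51_P383210 between -0.38 and 0.14.

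The labels give both groups the numbers 1 and 2, but do not say what a number shares. The differences between replicates 1 and 2 of the 2 groups correlated at 0.26 over probes. With the replicate block 1 member probe passed the threshold, the same Plau probe, and 7 in place of 5 met the adjusted p, with F3 (adjusted p by limma = 0.0772) and the dimmer Plat probe (0.0138) added. Of the other genes, 7 were then higher and 1 lower past the threshold. The shares of the whole array with the block are not given here, so that these counts are no result about the members or the list. Where leaving out an array left a lone one, its spread was taken to be that of the other group.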
